A study of Mus musculus with 12 samples.

Results

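The 10 genes described here encode molecules through which regulatory T cells (Treg) restrain other cells: Lrrc32, Tgfb1, Itgb8, Entpd1, Nt5e, Gzmb, Prf1, Ebi3, Fgl2 and Areg. They were taken as a list of genes of known Treg suppressive or tissue-repair mechanisms, with earlier results of these data known but by no threshold on a measured value, and all 10 were found among the 16139 gene symbols present in both deposited expression tables. Polyadenylated RNA was sequenced from mouse Treg of spleen and lymph nodes in 12 libraries, 2 in each of 6 groups. The groups are Kdm2b conditional knockout (cKO) and wild type (WT) Treg in vivo, cKO and WT Treg stimulated in vitro, and cKO and WT Treg left unstimulated in vitro. The Cre driver, the deleted exons, the strain and age of the mice, the stimulus and the time in culture are not given in the sources used here. Levels are the deposited FPKM, in which fragment numbers are corrected for the length of a gene and the size of a library, so levels can be compared between genes.

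Treg are CD4 T cells that express the transcription factor Foxp3 and hold back immune responses by several routes at once. They present latent TGF-beta on their surface and release it, convert extracellular ATP to adenosine, kill target cells with granule proteins, secrete inhibitory proteins, and in tissues release growth factors that help repair. Kdm2b encodes a histone demethylase that binds unmethylated CG dinucleotides through its CXXC zinc finger and is a subunit of a non-canonical Polycomb complex, PRC1.1.

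The targeted gene, Kdm2b, was at 146 and 125 FPKM in cKO against 113 and 110.4 FPKM in WT in vivo, at 66.3 and 70.5 against 74.5 and 71.7 FPKM stimulated, and at 89.8 and 97.4 against 84.9 and 94.9 FPKM unstimulated. Deletion of some exons need not lower a gene's summed level, so these values test no label, and cKO and WT mean the libraries so labelled. All 8 Treg-defining genes on the marker list were above 0 in every library. They summed to 1882 and 1945 FPKM in cKO against 2010 and 2113 in WT in vivo, to 1663 and 1636 against 2113 and 2263 stimulated, and to 1131 and 1200 against 1386 and 1394 unstimulated. The sum was lower in both cKO libraries each time, but its genes did not all move that way. Ctla4, the largest in vivo, was at 891.5 and 930.7 FPKM in cKO against 1097 and 1189 in WT there, and was lower in cKO in vitro too. Cd4 was lower in both cKO libraries in vivo. Il2ra, Ikzf2, Ikzf4, Tnfrsf18 and Foxp3 lay higher in both cKO libraries in vivo. So did Ikzf2 and Cd4 stimulated, and Ikzf2, Ikzf4 and Il2ra unstimulated. Foxp3 alone was at 114 and 117 FPKM in cKO against 107 and 106 in WT in vivo, at 238 and 268 against 529 and 696 stimulated, and at 71.5 and 82.6 against 194 and 189 unstimulated. Marker genes of other cells also differed between the genotypes. The 14 measured genes of a 15-gene B cell list gave a sum of 25.4 and 35.8 FPKM in cKO against 71.7 and 92.9 in WT in vivo, to 220 and 214 against 73.3 and 46.5 stimulated, and to 258 and 267 against 47.2 and 51.9 unstimulated. The 15 myeloid genes summed to 126 and 166 FPKM in cKO against 160.3 and 171 in WT in vivo, to 343 and 158 against 117 and 128 stimulated, and to 470 and 194 against 124 and 164 unstimulated. Erythroid genes took 10.4% and 1.86% of all FPKM in stimulated cKO and 11.7% and 1.26% in unstimulated cKO, against at most 0.457% in any WT library in vitro. Both WT replicate 2 libraries in vitro listed more genes at 0, 13273 stimulated and 12379 unstimulated, against 9102 to 9857 in the remaining 6 in vitro libraries. The part of these differences in the results below was not tested unless a value is given.

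Together the 10 genes made up between 0.125% and 0.256% of a library's FPKM, and 3 of them, Lrrc32, Tgfb1 and Nt5e, held 79.7% to 91.4% of that sum. Prf1 had the lowest mean in vitro, down to 0.484 FPKM in 1 stimulated WT library, and Fgl2 the lowest mean in vivo. All 10 passed the filter of a mean of at least 1 FPKM in each table, Prf1 narrowly in vitro with a mean of 1.05 FPKM.

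**Figure D1:**
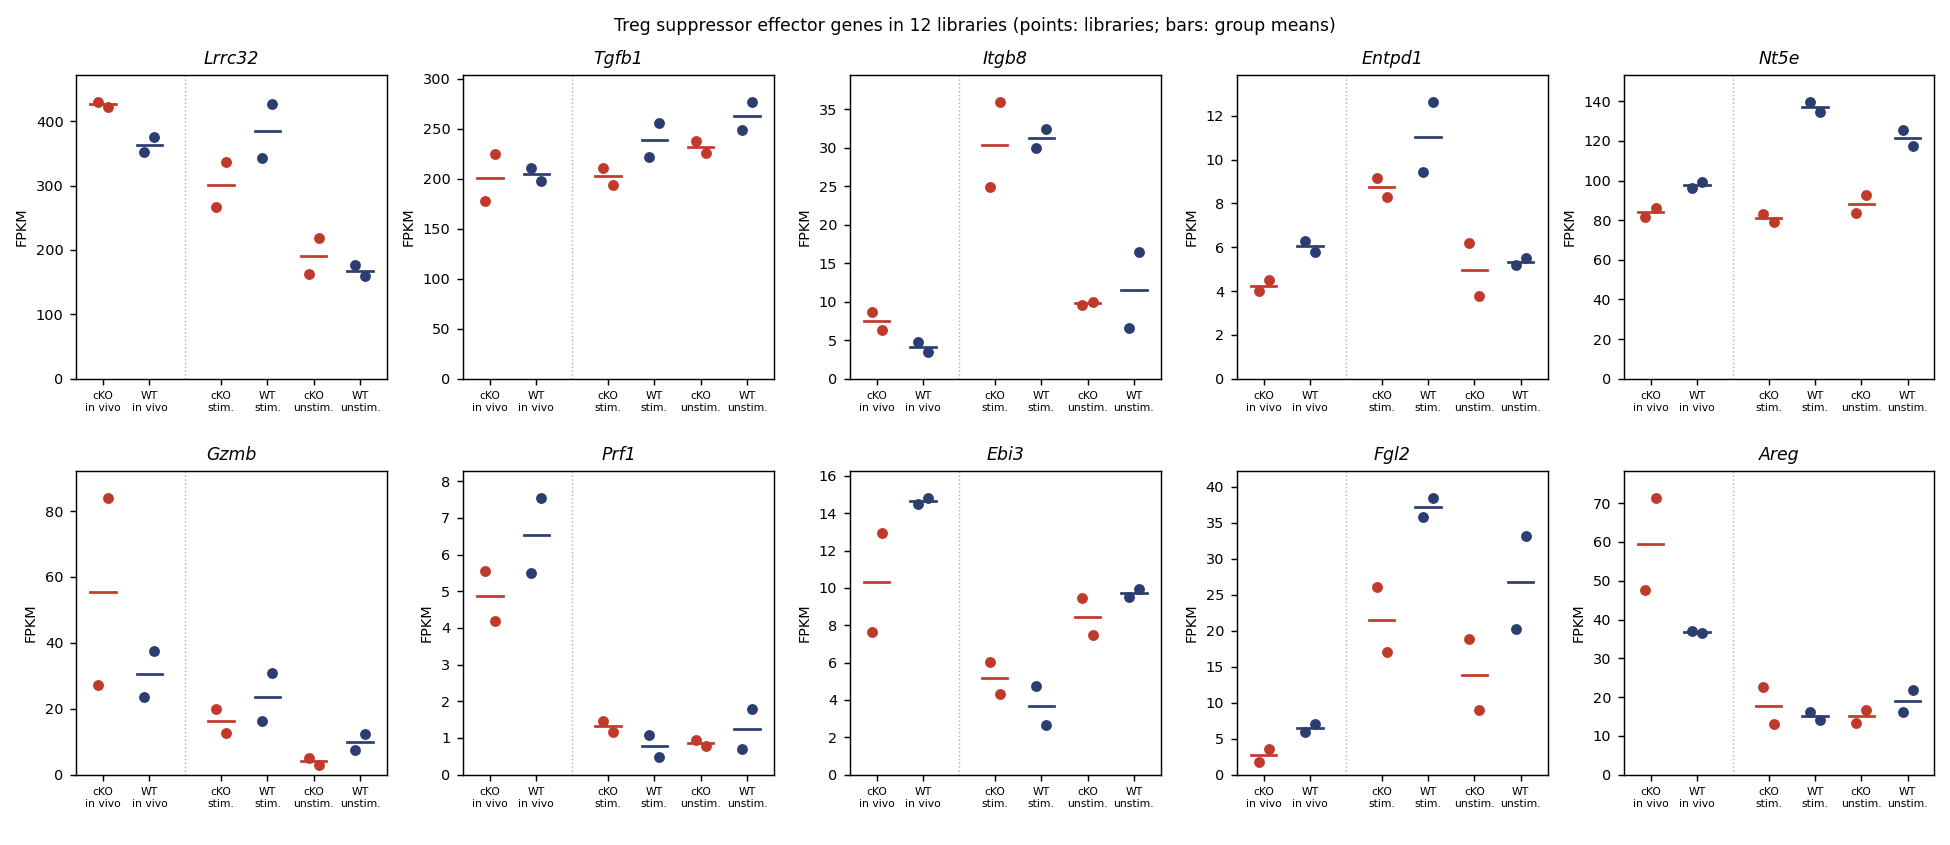
FPKM of each of the 10 genes (vertical axes, linear from 0) in the 12 libraries. Each point is 1 library, each bar a group mean, with cKO in red and WT in blue; the dotted line separates the in vivo from the in vitro libraries, which come from tables made separately. Both cKO points lie below both WT points in vivo, stimulated and unstimulated for Nt5e and Fgl2.

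Genotype was compared within each condition with limma on log2(FPKM + 1), with Benjamini-Hochberg adjusted p-values over all genes tested. None of the 10 genes passed an adjusted p of 0.05 in vivo, where 0.374% of 10415 genes did. None passed stimulated, where 0.0187% of 10710 genes did, and none unstimulated, where 0.0747% did. At an unadjusted p under 0.05 there were 5 members and 1350 genes in vivo, 1 member and 1508 genes stimulated, and 3 members and 703 genes unstimulated. The median log2 fold change of the members, cKO over WT, was -0.13 in vivo, -0.26 stimulated and -0.20 unstimulated, beside -0.02, -0.05 and 0.02 for all genes tested. Both cKO libraries lay above both WT libraries for 3 members and below for 4 in vivo, above for 1 and below for 5 stimulated, and above for 0 and below for 5 unstimulated. Over all genes tested the matching shares were 21.5% above and 25.8% below in vivo, 18.5% and 29.8% stimulated, and 17.8% and 16.6% unstimulated. Nt5e and Fgl2 lay below in all 3 conditions, which held for 3.65% of the 9842 genes tested in both tables, and no member lay above in all 3, which held for 2.42%. Lower levels in a bulk sample cannot be told apart from fewer cells that carry the transcript.

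**Figure D2:**
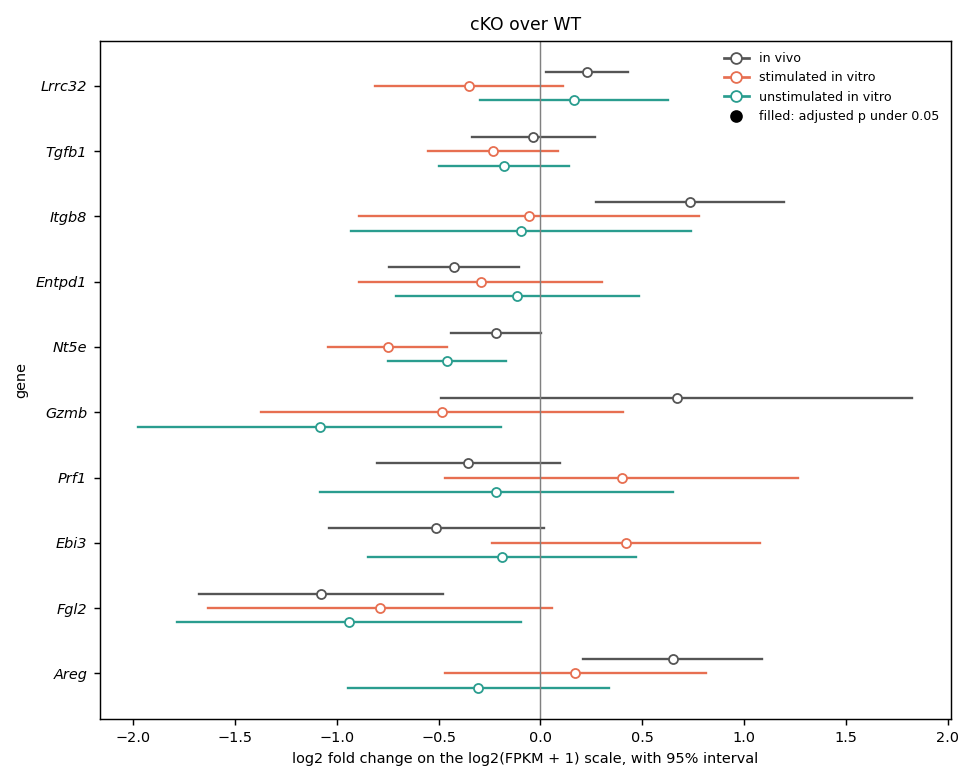
Log2 fold change of cKO over WT on the log2(FPKM + 1) scale (horizontal axis) with its 95% interval for each gene, in vivo in grey, stimulated in orange and unstimulated in green. No point is filled, because no gene reached an adjusted p under 0.05; the lowest adjusted p was 0.0912, for Nt5e stimulated.

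Stimulation was compared within each genotype in vitro. In cKO cells 1 member, Gzmb, passed the test, beside 4.58% of all genes and 2.08% that rose, and in WT cells 1 member, Lrrc32, passed it, beside 2.43% of all genes and 1.61% that rose. Both stimulated libraries lay above both unstimulated libraries for 5 members and below for 3 in cKO, beside 20.7% and 44.1% of all genes. In WT they lay above for 6 and below for 1, beside 18.8% and 22.9% of all genes. The median log2 fold change of the members was 0.48 in cKO and 0.34 in WT, beside -0.14 and -0.04 over all genes tested. The difference between the responses, cKO minus WT, passed for 0 members and 0% of all genes in limma, with an adjusted p of 0.999 for each member. At an unadjusted p under 0.05 there were 0 members and 380 genes, so the call of Gzmb in cKO and of Lrrc32 in WT does not show that the genotypes responded differently.

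**Figure D3:**
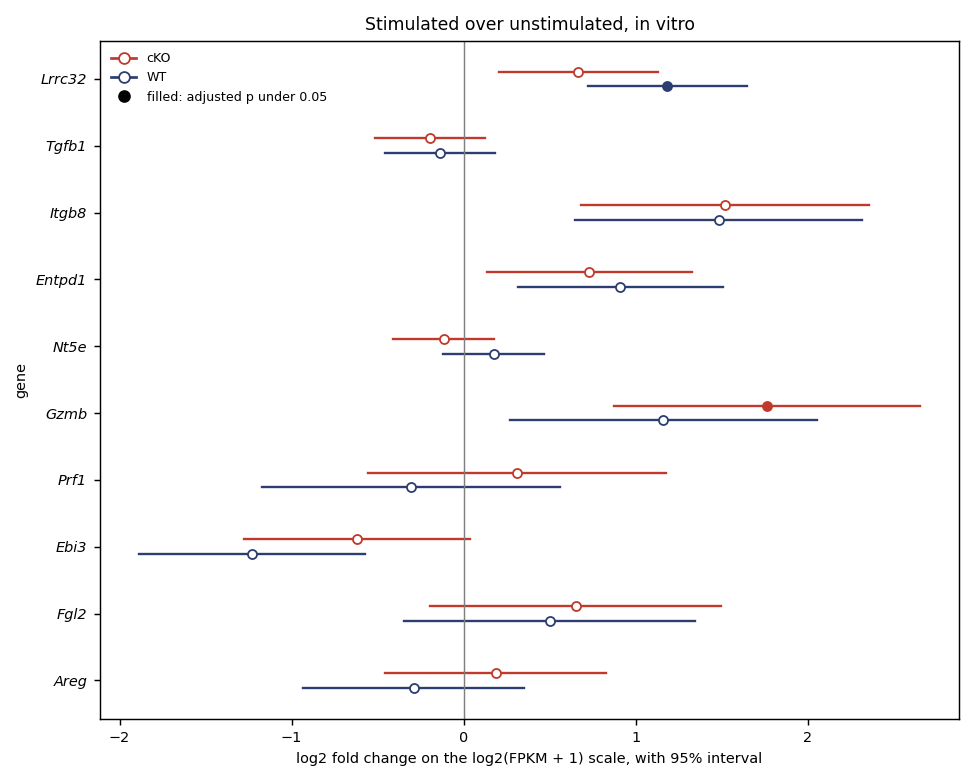
Log2 fold change of stimulated over unstimulated cells on the log2(FPKM + 1) scale (horizontal axis) with its 95% interval, cKO in red and WT in blue. Filled points passed an adjusted p of 0.05, Gzmb in cKO and Lrrc32 in WT; Itgb8 lies near 1.5 in both genotypes, at 1.52 in cKO and 1.48 in WT.

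The latent TGF-beta route begins with Lrrc32 (Entrez 434215, chromosome 7, 98489305 to 98501831, RefSeq annotation of GRCm38.p6), which encodes GARP, the receptor that tethers latent TGF-beta to the Treg surface. It was the most abundant member in vivo, at 429.8 and 423 FPKM in cKO and 352 and 376 FPKM in WT. Stimulated in vitro it was at 267 and 336 FPKM in cKO and 343 and 426 FPKM in WT, and unstimulated at 163 and 218 FPKM in cKO and 176 and 159.5 FPKM in WT. The genotypes did not overlap in vivo, with cKO above, nor stimulated, with cKO below, and they overlapped unstimulated.

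Cells stimulated in vitro held more Lrrc32 transcript than unstimulated cells in both genotypes, and the difference passed the test in WT. Lrrc32 rose to 384 ± 59.3 FPKM in stimulated WT, against 168 ± 11.95 FPKM in unstimulated WT (SD, n = 2 each). The log2 fold change was 1.18 (SE 0.20, limma adjusted p = 0.0253). In cKO the levels were 302 ± 49.1 FPKM stimulated and 191 ± 39.5 FPKM unstimulated, which is 0.67 on the log2 scale (SE 0.20, adjusted p = 0.106). The difference of the responses was -0.52 with a 95% interval of -1.17 to 0.14. For cKO over WT the log2 fold change of Lrrc32 was 0.23 in vivo (adjusted p = 0.336), -0.35 stimulated (adjusted p = 0.468) and 0.17 unstimulated (adjusted p = 0.960). The call in WT held in 10 of 20 alternatives, with adjusted p between 0.0106 and 0.145. It was lost without either stimulated cKO library, without either unstimulated WT library and without the WT stimulated replicate 2 library, while its direction stayed in all 20.

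By the root mean square difference of centred log2(FPKM + 1) over the 8 in vitro libraries, the closest of 7696 genes to Lrrc32 were Spred2, an inhibitor of Ras signalling, at 0.07, Noa1 at 0.12 and the folate carrier gene Slc19a1 at 0.13. Spred2 averaged 12.2 FPKM in stimulated cKO, 15.6 in stimulated WT, 7.91 in unstimulated cKO and 7.04 in unstimulated WT, the same order of groups as Lrrc32 in these tables.

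Tgfb1 (Entrez 21803, chromosome 7, 25687002 to 25705077), which encodes the cytokine TGF-beta 1 that GARP holds, varied least of the 10 genes relative to its own level. It was at 177 and 224 FPKM in cKO and 211 and 198 FPKM in WT in vivo, at 211 and 194 FPKM in cKO and 222 and 256 FPKM in WT stimulated, and at 238 and 226 FPKM in cKO and 249 and 277 FPKM in WT unstimulated. The genotypes overlapped in vivo, while both cKO libraries lay below both WT libraries in each in vitro condition. Between cKO and WT its log2 fold change was -0.03 in vivo with a 95% interval of -0.34 to 0.27, -0.23 stimulated (-0.55 to 0.09) and -0.18 unstimulated (-0.50 to 0.14). Stimulated relative to unstimulated, it was -0.19 in cKO (-0.51 to 0.13) and -0.14 in WT (-0.46 to 0.18), and no comparison passed the test.

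Tgfb1 stayed between 177 and 277 FPKM. The ratio of Lrrc32 to Tgfb1 within a library separated the stimulated from the unstimulated libraries but not the genotypes. In vivo it was 2.42 and 1.89 in cKO and 1.67 and 1.90 in WT. It was 1.26 and 1.73 in stimulated cKO and 1.54 and 1.67 in stimulated WT, against 0.684 and 0.968 in unstimulated cKO and 0.71 and 0.577 in unstimulated WT. All 4 stimulated ratios lay above all 4 unstimulated ones, and the genotypes overlapped in each condition.

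Itgb8 (Entrez 320910, chromosome 12, 119162803 to 119238276) encodes the beta 8 chain of the integrin that, with the alpha v chain, frees active TGF-beta from its latent form. Its level was 8.62 and 6.30 FPKM in cKO and 4.71 and 3.44 FPKM in WT in vivo. In vitro it was 24.9 and 35.9 FPKM in cKO and 29.9 and 32.5 FPKM in WT stimulated, and 9.58 and 10.01 FPKM in cKO and 6.60 and 16.5 FPKM in WT unstimulated. Every stimulated library lay above every unstimulated one, and cKO lay above WT in vivo without overlap.

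The response of Itgb8 to stimulation had close estimates in both genotypes but did not pass the test in either, with a log2 fold change of 1.52 in cKO (SE 0.36, limma adjusted p = 0.0587) and 1.48 in WT (SE 0.36, adjusted p = 0.0819). It passed in 7 of 20 alternatives in cKO and 3 of 20 in WT, among them the fits without either unstimulated WT library in cKO and without the WT unstimulated replicate 2 library in WT. The difference of the responses was 0.04, with an interval of -1.14 to 1.22, which does not show that they were alike. Between cKO and WT the log2 fold change of Itgb8 was 0.73 in vivo (SE 0.19, adjusted p = 0.205). It was 0.93 without the second cKO library. Stimulated it was -0.06 (adjusted p = 0.956) and unstimulated -0.09 (adjusted p = 0.987), and the stimulated value changed sign under 2 other scalings and without the cKO stimulated replicate 1 library, the unstimulated one without the WT unstimulated replicate 2 library.

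The alpha v gene, Itgav, was at 52.6 and 53.5 FPKM in cKO and 62.8 and 60.2 FPKM in WT in vivo, and between 27.2 and 56.1 FPKM in vitro. The ratio of Itgb8 to Itgav was 0.164 and 0.118 in cKO and 0.075 and 0.0572 in WT in vivo. It was 0.833 and 1.27 in stimulated cKO and 0.727 and 0.858 in stimulated WT, against 0.263 and 0.278 in unstimulated cKO and 0.242 and 0.294 in unstimulated WT. The beta 8 transcript thus stood well below its partner in vivo and near it after stimulation, and in vivo the cKO ratios lay above the WT ratios.

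Of the 18 other genes of TGF-beta latency, activation and signalling, 15 were tested in vivo and 13 in vitro. Furin, the protease that cleaves the TGF-beta precursor, rose on stimulation in both genotypes, by a log2 fold change of 1.03 in cKO (108 ± 19.2 FPKM stimulated, 52.2 ± 2.66 unstimulated, adjusted p = 0.0264) and 1.14 in WT (107 ± 16.3 stimulated, 48.0 ± 7.03 unstimulated, adjusted p = 0.0231; SD, n = 2 each). The call was lost in cKO without any 1 of the 4 cKO libraries, and in WT without either unstimulated cKO library, the WT unstimulated replicate 1 or the WT stimulated replicate 2 library. Furin was the only called gene of the list, 1 of 13 in each genotype, and the list's median log2 fold change was 0.01 in cKO and 0.19 in WT, beside -0.14 and -0.04 for all genes. For cKO over WT none passed in any condition, and the list's median was -0.06 in vivo, -0.21 stimulated and -0.08 unstimulated. Ltbp4, which encodes a protein that binds latent TGF-beta to the matrix, was at 2.13 and 6.13 FPKM in cKO and 0.32 and 0.18 FPKM in WT in vivo (log2 fold change 1.92, SE 0.36, adjusted p = 0.0964). In vitro it was at 1.32 to 2.22 FPKM in the 4 cKO libraries and at 0 to 0.244 FPKM in the 4 WT libraries, and it had too low a mean there to be tested. Tgif1, a repressor of TGF-beta target genes, had a log2 fold change of -0.82 stimulated (adjusted p = 0.158) and -0.45 unstimulated (adjusted p = 0.772).

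Extracellular ATP is turned into adenosine by the products of Entpd1 (CD39, Entrez 12495, chromosome 19, 40612366 to 40741602), which removes phosphates from ATP and ADP, and Nt5e (CD73, Entrez 23959, chromosome 9, 88327609 to 88372089), which makes adenosine from AMP. Both transcripts had lower group means in cKO than in WT in all 3 conditions, and neither passed the test in any.

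Nt5e was lower in cKO than in WT in every pair of libraries of a condition. Its level was 81.8 and 86.0 FPKM in cKO against 96.2 and 99.2 FPKM in WT in vivo. Stimulated it was 82.9 and 79.2 FPKM in cKO against 139.6 and 134 FPKM in WT, and unstimulated 83.6 and 92.5 FPKM in cKO against 125 and 117 FPKM in WT. All 6 cKO libraries stayed between 79.2 and 92.5 FPKM and lay below all 6 WT libraries, although the levels in vivo and in vitro come from tables made separately.

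The log2 fold change of Nt5e was -0.75 stimulated (95% interval -1.04 to -0.46, limma adjusted p = 0.0912), -0.46 unstimulated (-0.75 to -0.17, adjusted p = 0.417) and -0.22 in vivo (-0.44 to 0.00322, adjusted p = 0.389). With the haemoglobin genes left out and the rest rescaled it was -0.72 stimulated and -0.43 unstimulated. Its direction stayed in all 20 alternatives of each in vitro comparison and all 11 in vivo. The sum of the Treg-defining genes was also lower in both cKO libraries in all 3 conditions, though not each gene of it, as given above. The B cell sum was lower in cKO in vivo and higher in cKO in vitro. The part of these sums in the Nt5e values was not tested. Stimulated over unstimulated, Nt5e had a log2 fold change of -0.12 in cKO (adjusted p = 0.653), which took the opposite sign under 3 other scalings, and 0.17 in WT (adjusted p = 0.489).

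Since Kdm2b protein binds CG dinucleotides, the bases before the start of 3 members are shown to set side by side a promoter with many, an intermediate number and few. Sequences are RefSeq's for GRCm38.p6, 250 bases upstream of the start read 5′ to 3′ on the gene's strand, with CG dinucleotides and the AP-1 letters TGANTCA in capitals. Nt5e stands at chr9:88327359-88327608 on the plus strand, Itgb8 at chr12:119238277-119238526 on the minus strand and Gzmb at chr14:56262335-56262584 on the minus strand.
Nt5e: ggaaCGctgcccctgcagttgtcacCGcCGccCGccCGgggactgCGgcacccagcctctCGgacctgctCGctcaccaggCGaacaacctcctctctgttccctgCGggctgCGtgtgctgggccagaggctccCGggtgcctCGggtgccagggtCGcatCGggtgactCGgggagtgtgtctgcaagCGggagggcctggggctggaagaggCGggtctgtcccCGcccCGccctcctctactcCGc
Itgb8: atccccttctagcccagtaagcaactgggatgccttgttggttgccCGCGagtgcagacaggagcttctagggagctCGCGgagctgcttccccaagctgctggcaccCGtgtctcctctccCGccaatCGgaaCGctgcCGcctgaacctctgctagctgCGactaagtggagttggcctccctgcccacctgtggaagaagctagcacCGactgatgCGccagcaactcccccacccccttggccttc
Gzmb: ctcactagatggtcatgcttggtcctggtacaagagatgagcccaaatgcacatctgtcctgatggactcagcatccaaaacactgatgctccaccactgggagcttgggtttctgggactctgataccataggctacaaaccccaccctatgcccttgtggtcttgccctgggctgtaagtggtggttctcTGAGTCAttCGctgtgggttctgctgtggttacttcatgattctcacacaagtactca
The Nt5e window held 21 CG dinucleotides, Itgb8 12 and Gzmb 1.

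Of the 10 genes, 9 had a promoter in the RefSeq table, with 10 windows because Entpd1 has 2, and Lrrc32 is named only. The median over all 32851 promoters was 6 CG dinucleotides, with quartiles of 2 and 16. Tgfb1 held 21 like Nt5e, Entpd1 18 and 8, Areg 15, Fgl2 10, Prf1 4 and Ebi3 2. At least as many as the 21 of Nt5e were found in 16.3% of promoters and at least the 1 of Gzmb in 92.1%. The AP-1 letters TGANTCA, which read the same on both strands, were found as TGAGTCA in Gzmb, 58 bases before the start, and in Fgl2, 16 bases before it, and in 6.75% of all promoters. The forkhead letters TGTTTAC, searched on both strands, were in none of the 10 windows and in 3.17% of all promoters. The motifs do not overlap each other. These matches describe letters only.

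Entpd1 was low beside Nt5e, at 3.98 and 4.51 FPKM in cKO and 6.29 and 5.79 FPKM in WT in vivo. Stimulated it was at 9.17 and 8.30 FPKM in cKO and 9.42 and 12.6 FPKM in WT, and unstimulated at 6.18 and 3.78 FPKM in cKO and 5.18 and 5.51 FPKM in WT. The genotypes did not overlap in vivo or stimulated, with cKO lower, and overlapped unstimulated. Cells of both genotypes lay higher when stimulated, by a log2 fold change of 0.73 in cKO (adjusted p = 0.154) and 0.91 in WT (adjusted p = 0.119). For cKO over WT the log2 fold change was -0.43 in vivo (SE 0.13, adjusted p = 0.277), -0.29 stimulated (adjusted p = 0.643) and -0.11 unstimulated (adjusted p = 0.978). Without the second cKO library the in vivo value was -0.50. CD39 is also made by myeloid and B cells. The B cell sum was lower in cKO in vivo and higher in cKO in vitro. The myeloid sum overlapped between the genotypes in vivo and was higher in both cKO libraries of each in vitro condition. Their part in the Entpd1 values was not tested.

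The ratio of Entpd1 to Nt5e was 0.0487 and 0.0524 in cKO and 0.0654 and 0.0584 in WT in vivo. Stimulated it was 0.111 and 0.105 in cKO and 0.0675 and 0.0939 in WT, and unstimulated 0.0739 and 0.0409 in cKO and 0.0413 and 0.0469 in WT. The cKO ratios were below the WT ratios in vivo and above them stimulated, without overlap in either, and overlapped them unstimulated. The highest ratio, 0.111, was in stimulated cKO.

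Of 12 other adenosine genes, 11 were tested in each table. Pde4a, a phosphodiesterase that breaks down the cyclic AMP raised by adenosine receptors, rose in vivo to 12.9 and 12.3 FPKM in cKO, against 4.11 and 3.98 FPKM in WT (log2 fold change 1.43, SE 0.12, limma adjusted p = 0.0205), the 1 gene called of 11. The call was lost without the second WT library. In vitro its genotypes overlapped unstimulated, at 8.45 and 7.46 FPKM in cKO and 5.05 and 9.28 FPKM in WT. Adora2a, the main adenosine receptor of T cells, was lower in both cKO libraries in each condition, at 70.5 and 88.4 FPKM in cKO against 94.7 and 109.8 FPKM in WT in vivo. Stimulated it was at 36.5 and 31.8 FPKM in cKO against 58.2 and 49.8 FPKM in WT, and unstimulated at 40.3 and 43.5 FPKM in cKO against 69.6 and 63.8 FPKM in WT. Its log2 fold change was -0.37 in vivo (adjusted p = 0.351), -0.65 stimulated (adjusted p = 0.147) and -0.66 unstimulated (adjusted p = 0.259), none of which passed. Lying below in all 3 conditions held for 3.65% of the genes tested in both tables, as given above.

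Enpp1, an ectoenzyme that makes AMP from ATP, rose on stimulation in cKO to 9.84 ± 0.0369 FPKM, against 2.70 ± 0.674 FPKM unstimulated (SD, n = 2 each; log2 fold change 1.56, SE 0.28, limma adjusted p = 0.0263), a call lost without any 1 of the 4 cKO libraries. In WT it was at 4.69 ± 1.48 FPKM stimulated and 1.54 ± 0.278 FPKM unstimulated (log2 fold change 1.14, adjusted p = 0.0826). Adk, the kinase that clears adenosine inside the cell, had a log2 fold change of -1.62 in WT (adjusted p = 0.0744). In unstimulated cells Dpp4, which encodes CD26, had a log2 fold change of 0.88 for cKO over WT (adjusted p = 0.259). The list's median log2 fold change for cKO over WT was -0.03 in vivo, 0.07 stimulated and 0.18 unstimulated, and for stimulated over unstimulated -0.24 in cKO and -0.26 in WT.

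The granule pair consists of Gzmb (Entrez 14939, chromosome 14, 56258836 to 56262334), which encodes the protease granzyme B, and Prf1 (Entrez 18646, chromosome 10, 61297751 to 61304684), which encodes perforin, the pore through which granzymes enter a target cell. Gzmb lies in a cluster of similar granzyme genes, between which reads may have been split, so its levels carry that uncertainty.

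Gzmb was at 27.1 and 83.9 FPKM in cKO and 23.6 and 37.4 FPKM in WT in vivo. Stimulated it was at 19.8 and 12.7 FPKM in cKO and 16.4 and 30.9 FPKM in WT, and unstimulated at 5.10 and 3.05 FPKM in cKO and 7.41 and 12.2 FPKM in WT. The genotypes overlapped in vivo and stimulated, and cKO lay below WT unstimulated. The spread in vivo was wide, and the log2 fold change there rested on the second cKO library. It was 0.67 (SE 0.48, adjusted p = 0.576) with both, -0.13 without that library and 1.47 without the first.

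Gzmb rose in stimulated cKO to 16.2 ± 5.08 FPKM, against 4.07 ± 1.45 FPKM in unstimulated cKO (SD, n = 2 each). The log2 fold change was 1.76 (SE 0.38, limma adjusted p = 0.0469). In WT the levels were 23.6 ± 10.3 FPKM stimulated and 9.81 ± 3.39 FPKM unstimulated, a log2 fold change of 1.16 (adjusted p = 0.165). The difference of the responses was 0.60 (95% interval -0.66 to 1.86). The call in cKO lay close to the threshold and held in 11 of 20 alternatives, with adjusted p between 0.0158 and 0.500. It was lost without any 1 of the 4 cKO libraries, as were most calls over all genes in cKO stimulation. Its direction stayed in all 20. For cKO over WT the log2 fold change was -0.48 stimulated (adjusted p = 0.608) and -1.08 unstimulated (SE 0.38, adjusted p = 0.638).

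The 3 genes closest to Gzmb over the 8 in vitro libraries were Trat1, a T cell receptor adaptor, at a root mean square difference of 0.32, Znrf3, an inhibitor of Wnt signalling, at 0.34, and the co-stimulatory receptor gene Icos at 0.36. These differences are larger than the 0.07 to 0.13 found for Lrrc32.

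Prf1 was at 5.56 and 4.19 FPKM in cKO and 5.51 and 7.54 FPKM in WT in vivo. In vitro it lay near the filter, at 1.47 and 1.18 FPKM in cKO and 1.08 and 0.484 FPKM in WT stimulated, and at 0.954 and 0.791 FPKM in cKO and 0.698 and 1.78 FPKM in WT unstimulated. The genotypes overlapped except in stimulated cells, where cKO lay above WT, and no comparison passed the test. Between cKO and WT its log2 fold change was -0.35 in vivo (adjusted p = 0.465), 0.40 stimulated (adjusted p = 0.665) and -0.22 unstimulated (adjusted p = 0.975). The ratio of Prf1 to Gzmb was 0.205 and 0.0499 in cKO and 0.233 and 0.202 in WT in vivo, so perforin transcript stayed below granzyme B transcript in each of these libraries.

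Among 17 other granule genes, all tested in vivo and 14 in vitro, 1 was called. Ctsc, the cathepsin that activates granzymes, rose in WT to 26.6 ± 2.24 FPKM stimulated, against 10.6 ± 3.24 FPKM unstimulated (SD, n = 2 each; log2 fold change 1.27, SE 0.22, limma adjusted p = 0.0287), a call kept in 2 of 8 fits that each left out 1 library, those without the WT unstimulated replicate 1 or the WT stimulated replicate 1 library. In cKO it was at 26.4 ± 0.967 FPKM stimulated and 15.1 ± 2.16 FPKM unstimulated (log2 fold change 0.77, adjusted p = 0.0937). Serpinb6a, an inhibitor of granule proteases, was lower in both cKO libraries in all 3 conditions, as were 3.65% of the genes tested in both tables. Its log2 fold change was -0.54 in vivo (adjusted p = 0.199), -1.06 stimulated (adjusted p = 0.130) and -0.72 unstimulated (adjusted p = 0.513). Serpinb9 of the same list was lower in both cKO libraries in vivo and higher in both in each in vitro condition. Of the list, both cKO libraries lay above both WT libraries for 1 gene and below for 6 in vivo. The counts were 4 and 4 stimulated and 5 and 4 unstimulated, beside the shares of all genes given above. The list's median for cKO over WT was -0.13 in vivo, 0.08 stimulated and 0.10 unstimulated. The 12 genes of the CD8 T and NK cell list, of which Gzmk also belongs to the granule list, summed to 24.5 to 35.3 FPKM in vivo and 3.05 to 16.9 FPKM in vitro.

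Ebi3 (Entrez 50498, chromosome 17, 55952623 to 55957022) encodes a subunit of interleukin 35, shared with interleukin 27. Its span overlaps that of Zfp119b, which both tables also list. The sources used here do not say that the counting used strand, and exons were not compared. Whether reads of the 2 genes were mixed is therefore not known. Its level was 7.64 and 13.0 FPKM in cKO and 14.5 and 14.8 FPKM in WT in vivo. Stimulated it was at 6.05 and 4.32 FPKM in cKO and 4.75 and 2.64 FPKM in WT, and unstimulated at 9.48 and 7.45 FPKM in cKO and 9.51 and 9.96 FPKM in WT. Ebi3 was the 1 member for which both stimulated libraries lay below both unstimulated ones in each genotype. The log2 fold change was -0.62 in cKO (SE 0.28, adjusted p = 0.259) and -1.23 in WT (SE 0.28, adjusted p = 0.0702). In WT it was -1.56 without the WT stimulated replicate 1 library. For cKO over WT it was -0.51 in vivo (adjusted p = 0.395), 0.42 stimulated (adjusted p = 0.539) and -0.19 unstimulated (adjusted p = 0.970). The in vivo value was -0.86 without the second cKO library.

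Il12a, the other subunit of interleukin 35, was near 0, at 0.1 and 0.06 FPKM in cKO and 0.2 and 0.2 FPKM in WT in vivo. In vitro it was at 0.53 to 1.42 FPKM in the 4 cKO libraries and at 0 to 0.378 FPKM in the 4 WT libraries. Of 9 other genes of the interleukin 12 family 6 were tested in each table and none was called in any comparison. Il6st, the signalling chain gp130, was at 186 and 159.7 FPKM in cKO and 125 and 131 FPKM in WT in vivo (log2 fold change 0.43, adjusted p = 0.181). Il12rb1, a receptor chain, had a log2 fold change of 0.50 stimulated (adjusted p = 0.487) and 0.65 unstimulated (adjusted p = 0.786).

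Fgl2 (Entrez 14190, chromosome 5, 21372673 to 21378386) encodes a secreted fibrinogen-like protein that inhibits dendritic cells and B cells. Its span lies within that of Ccdc146, which both tables also list. Exons were not compared, so whether reads of the 2 genes were mixed is not known. Its level was 1.74 and 3.60 FPKM in cKO against 5.92 and 7.10 FPKM in WT in vivo. Stimulated it was 26.1 and 17.1 FPKM in cKO against 35.9 and 38.4 FPKM in WT, and unstimulated 18.8 and 8.98 FPKM in cKO against 20.3 and 33.2 FPKM in WT. The genotypes did not overlap in any condition, with cKO lower in each.

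The log2 fold change of Fgl2 was -1.08 in vivo (SE 0.25, limma adjusted p = 0.159), -0.79 stimulated (SE 0.37, adjusted p = 0.384) and -0.94 unstimulated (SE 0.37, adjusted p = 0.693). In vivo it passed in no fit that kept both cKO libraries. It was -0.70 when the first cKO library was dropped and -1.45 when the second was. Each of these fits holds a lone cKO library with no spread of its own, so only the size is given. Fgl2 is also expressed by myeloid cells. In the cKO replicate 1 library of each in vitro condition, where the myeloid sum was 343 FPKM stimulated and 470 FPKM unstimulated, Fgl2 stood at 26.1 and 18.8 FPKM, above the other cKO library. The WT libraries had lower myeloid sums than that library, 117 and 128 FPKM stimulated and 124 and 164 FPKM unstimulated. Their Fgl2 was higher, at 35.9 and 38.4 FPKM stimulated and 20.3 and 33.2 FPKM unstimulated. The part of myeloid cells in the Fgl2 values was not tested. Stimulated over unstimulated the log2 fold change was 0.65 in cKO (adjusted p = 0.353) and 0.50 in WT (adjusted p = 0.492).

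Areg (Entrez 11839, chromosome 5, 91139599 to 91148432) encodes amphiregulin, an epidermal growth factor family ligand through which Treg promote tissue repair. Its level was 47.7 and 71.3 FPKM in cKO against 37.0 and 36.6 FPKM in WT in vivo. In vitro it was 22.5 and 13.0 FPKM in cKO and 16.3 and 14.0 FPKM in WT stimulated, and 13.4 and 16.7 FPKM in cKO and 16.0 and 21.8 FPKM in WT unstimulated. Both cKO libraries lay above both WT libraries in vivo, and the genotypes overlapped in vitro. The log2 fold change in vivo was 0.65 (SE 0.18, limma adjusted p = 0.241), and it passed in no fit that kept both cKO libraries. It was 0.93 when the first cKO library was dropped and 0.36 when the second was. Those fits hold a lone cKO library with no spread of its own, so only the size is given. Stimulated, the log2 fold change of Areg was 0.17 (adjusted p = 0.812) and unstimulated -0.31 (adjusted p = 0.934). Stimulated relative to unstimulated, it was 0.19 in cKO (adjusted p = 0.765) and -0.29 in WT (adjusted p = 0.605).

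Hbegf, another ligand of the same receptor, rose on stimulation in both genotypes. It was at 7.95 and 5.80 FPKM in stimulated cKO against 1.20 and 0.929 FPKM in unstimulated cKO (log2 fold change 1.92, SE 0.28, limma adjusted p = 0.0159). In WT it was at 5.47 and 7.79 FPKM stimulated against 0.791 and 0.830 FPKM unstimulated (log2 fold change 2.06, SE 0.28, adjusted p = 0.0128). The ratio of Areg to Hbegf was accordingly 2.83 and 2.24 in stimulated cKO and 2.98 and 1.80 in stimulated WT, against 11.2 and 17.9 in unstimulated cKO and 20.3 and 26.3 in unstimulated WT. The list of 12 genes around Areg holds ligands of the EGF family, their receptor Egfr, the genes Adam10, Adam17 and Rhbdf2 of ligand shedding, and the cytokine receptor genes Il1rl1 and Il18r1. Of these, 7 were tested in each table, and Hbegf was the only one called in any comparison. Its call in cKO was lost without any 1 of the 4 cKO libraries, and its call in WT without the WT stimulated replicate 2 library. Il1rl1, the interleukin 33 receptor, had a log2 fold change of -0.82 for cKO over WT unstimulated (adjusted p = 0.711).

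**Figure D4:**
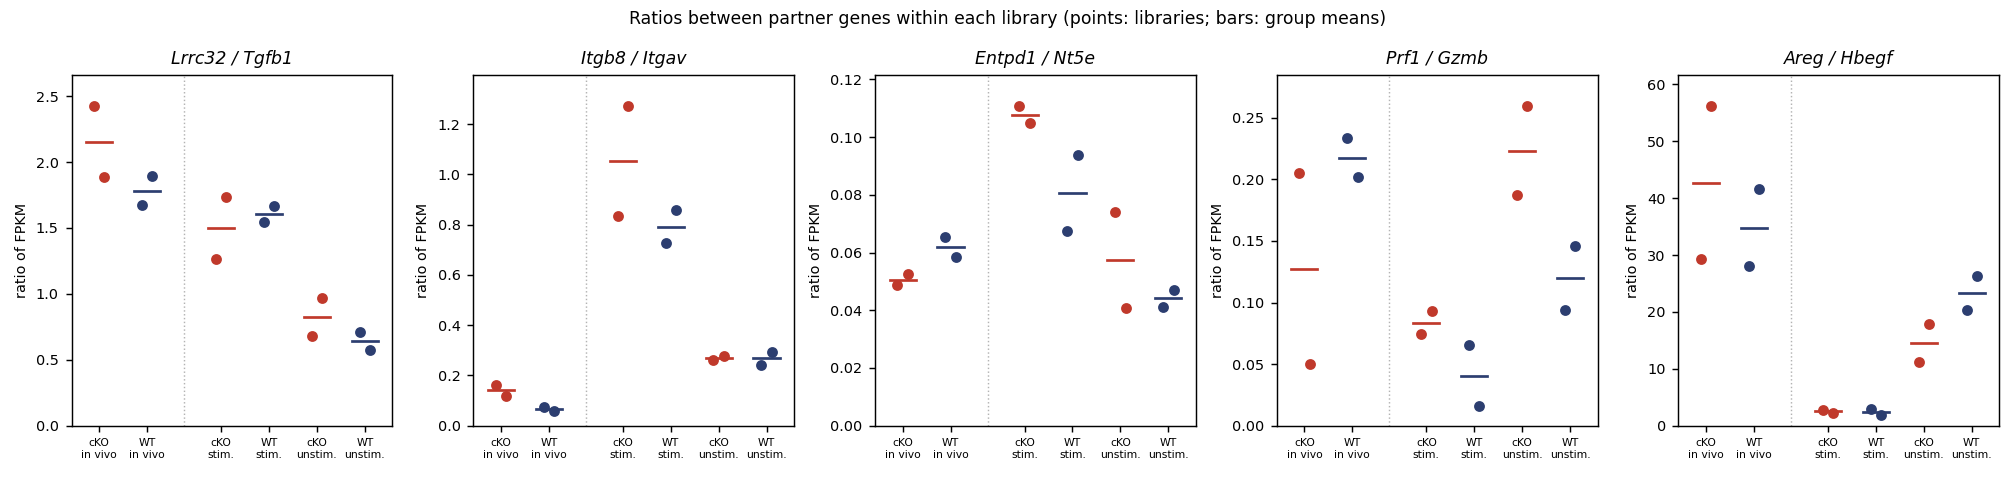
Ratio of FPKM between partner genes within each library (vertical axes, linear from 0); each point is 1 library, each bar a group mean, cKO in red and WT in blue. Stimulated cells lie apart from unstimulated cells in the ratios of Lrrc32 to Tgfb1, Itgb8 to Itgav and Areg to Hbegf, in both genotypes.

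Beside the members, 17 other Treg suppressor genes were tested in each table. On stimulation Il2ra, the interleukin 2 receptor alpha chain, rose by a log2 fold change of 1.83 in cKO (limma adjusted p = 0.00422) and 1.83 in WT (adjusted p = 0.00447), and Ptger4, a prostaglandin E2 receptor, by 1.43 in cKO (adjusted p = 0.00477) and 1.14 in WT (adjusted p = 0.0115). Pdcd1, which encodes PD-1, fell by 1.08 in cKO (adjusted p = 0.0130) and by 0.92 in WT (adjusted p = 0.0231). Icos rose in cKO by 1.71 (adjusted p = 0.0172), and Nrp1 fell in WT by 0.89 (adjusted p = 0.0390). In all 3 of 17 rose and 1 fell in cKO, beside 4.58% of all genes called and 2.08% called higher. In WT 2 rose and 2 fell, beside 2.43% called and 1.61% called higher. In cKO each of these calls was lost without either stimulated cKO library and without the cKO unstimulated replicate 2 library, and that of Pdcd1 also without the cKO unstimulated replicate 1 library. In WT the call of Il2ra held in all 20 alternatives, that of Ptger4 was lost without the WT stimulated replicate 2 library, and those of Pdcd1 and Nrp1 held in 3 and 1 of the 8 fits that each left out 1 library. All directions stayed in all 20.

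For cKO over WT, 1 of the 17 was called, in unstimulated cells, where 0.0747% of all genes tested were. Il10, an anti-inflammatory cytokine, fell in unstimulated cells to 8.93 and 8.14 FPKM in cKO, against 43.5 and 55.4 FPKM in WT (log2 fold change -2.40, SE 0.25, limma adjusted p = 0.0189). The call held in 12 of 20 alternatives and was lost without any 1 of the 4 unstimulated libraries, with adjusted p up to 0.304, while the direction stayed in all 20. In vivo its log2 fold change was -0.77 (adjusted p = 0.0592) and stimulated -1.68 (adjusted p = 0.0864), which did not pass. The median over the 17 genes was -0.10 in vivo, -0.24 stimulated and -0.19 unstimulated. Over the 10 members it was -0.13, -0.26 and -0.20 in the same order of conditions.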

How the data were processed

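The authors deposited FPKM, 1 column per library, in 1 table of 4 in vivo libraries and 1 of 8 in vitro libraries. Per the submitters' processing notes the tools were HISAT2 2.2.1 and StringTie 2.1.1; mm10 and hg19 stand there without a role, and annotation, strand setting and filters are not given in the sources used here. Depth is unknown, no steps of whole reads being seen in the low values, so no counting interval was computed. A further 4 columns that belong to none of the 12 samples were left out. In vivo Entrez numbers were mapped to RefSeq symbols (16196 of 16232), and in vitro 23204 of 24421 names were RefSeq symbols. In vivo columns carry no replicate number, so first and second follow table order. Each carries a different identifier that no label explains.

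Each table was fitted alone with limma 3.58.1 in R 4.3.3 on log2(FPKM + 1), a pseudocount of 1 that understates changes of low genes (eBayes with trend, two-sided). Genes averaging 1 FPKM or more entered the fit, and the 8 in vitro libraries shared 1 model of 4 groups. Calls were made below 0.05 after Benjamini-Hochberg adjustment across the whole table, and each adjusted p given is limma's. Replicates may be technical, as no label says they came from separate mice or cultures, so p-values measure only the spread between these libraries. The text names all members, up to 4 called genes of each pathway list or else up to 2 uncalled ones with the smallest p, and the 3 genes closest to each member called in vitro. Partner genes and genes below the filter (Itgav, Il12a, Ltbp4 in vitro) were added after their values were seen. Of this selection the text gives a part. The members and lists were chosen with earlier results of these data known. Alternatives were another pseudocount (0.1), no filter, a floor of 5 FPKM, median-of-ratios, quantile and common-sum scaling, trend-free eBayes, only the 4 libraries compared, a replicate block and leaving out each library. The fit was tested on simulated data.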

Additional observations from a re-analysis of the deposited data

Results flagged for a closer look

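Lrrc32 took opposite directions in 2 conditions. Between cKO and WT its log2 fold change was 0.23 in vivo, with both cKO libraries above both WT libraries, and -0.35 in stimulated cells, with both cKO libraries below both WT libraries. Neither value passed the test, and the difference between them was not tested, because the tables were made separately.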

How the results depend on the processing

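Depth is unknown, so it limits the precision of low genes such as Prf1 by an amount that cannot be given. With 2 libraries a group, 1 library often decided a call. In vivo the count of members called was 0, with a range of 0 to 5 when each library was left out in turn; leaving out the first cKO library gave 3 and leaving out the second gave 5, where the lone cKO library is assumed to vary like the WT libraries, and all genes called numbered 425 and 1994 in those fits, against 39. It was 0 with no filter, where all genes called also numbered 0. For stimulated over unstimulated WT cells the count of 1 became 0 with no filter, 0 without the intensity trend, 0 with only the 4 libraries compared and 0 without both cKO replicate 1 libraries, and ranged from 0 to 2 by leaving out a library. For cKO cells the count of 1 became 0 at a pseudocount of 0.1, 0 with no filter, 0 without the trend and 0 without both cKO replicate 1 libraries, and 2 at a floor of 5 FPKM, 2 under quantile normalization, 2 with only the 4 libraries compared and 2 without both WT replicate 2 libraries; it ranged from 0 to 2 by leaving out a library. Of the pathway genes called in cKO stimulation 0 of 7 passed without both cKO replicate 1 libraries, and 1 of 7 in WT stimulation. All genes called in WT stimulation numbered 260, but 92 with no filter, 157 without the trend and 34 with only the 4 libraries compared. Those in cKO stimulation numbered 490, but 410 at a pseudocount of 0.1, 185 with no filter and 207 without the trend. They numbered 588 at a floor of 5 FPKM, 588 under quantile normalization and 1918 with only the 4 libraries compared. Without both WT replicate 2 libraries they rose too. Without both cKO replicate 1 libraries most calls over all genes were lost in both genotypes. The cause was not tested.

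No paired analysis was possible in vivo because the columns carry no replicate number. In vitro the deviations of same-numbered libraries correlated at 0.42 between stimulated and unstimulated cKO and at 0.239 between stimulated and unstimulated WT, and at between -0.138 and 0.0577 across genotypes. Same-numbered libraries thus deviated together within a genotype and not across genotypes, and the labels do not say what a number marks. The block gives both genotypes 1 shared shift. With the replicate block the count of members called was 2 in WT stimulation (Lrrc32 and Itgb8) and 1 in cKO stimulation (Itgb8, with Gzmb at adjusted p = 0.0591), and it changed no other call of a member. All genes called with the block numbered 288 in WT stimulation, against 260, and 449 in cKO stimulation, against 490.

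Rescaling moved the median of all genes by up to 0.13 in cKO stimulation (quantile normalization) and 0.10 in WT stimulation (haemoglobin genes left out). Fits without haemoglobin genes, without both WT replicate 2 and without both cKO replicate 1 libraries were chosen after seeing the data. Only values that had not passed the test as reported reversed. Without both WT replicate 2 libraries, for cKO over WT unstimulated Prf1 was 0.14 and Itgb8 0.51, for WT stimulation Prf1 was 0.29 and Areg 0.020, and for the difference of responses Fgl2 was -0.14 and Itgb8 -0.51. Without both cKO replicate 1 libraries, for cKO over WT stimulated Areg was -0.20 and Itgb8 0.20, for cKO stimulation Areg was -0.34, and for the difference Entpd1 was 0.048 and Areg -0.045. Itgb8 stimulated, cKO over WT, was 0.034 under median-of-ratios and 0.061 under quantile scaling. Nt5e in cKO stimulation was 0.020 under median-of-ratios, 0.00855 at a common sum and 0.00209 without haemoglobin genes. For the difference, Entpd1 was 0.014 under quantile scaling and Tgfb1 0.046 under median-of-ratios.

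Leaving out 1 library gave, for cKO over WT in vivo, -0.13 to 1.47 for Gzmb and -0.20 to 0.13 for Tgfb1; unstimulated, -0.41 to 0.18 for Entpd1, -0.044 to 0.38 for Lrrc32 and -0.69 to 0.51 for Itgb8; and stimulated, -0.20 to 0.55 for Areg and -0.31 to 0.20 for Itgb8. For cKO stimulation it gave -0.19 to 0.56 for Areg. For the difference of responses it gave -0.47 to 0.11 for Entpd1, -0.34 to 0.65 for Fgl2, -0.16 to 0.047 for Tgfb1 and -0.56 to 0.64 for Itgb8. Of the alternatives for member counts, 84 were within 1.5 times the main count and 26 were not. This tally pools comparisons whose main count was 0, where only a count of 0 is within. Where a member was called, the call of Lrrc32 in WT held in 10 of 20 alternatives and that of Gzmb in cKO in 11 of 20.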
